A study of Mus musculus with 2 samples.

Results

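Peaks of open chromatin were examined at Myc and 9 genes of cell cycle control: the CDK inhibitor genes Cdkn1a, Cdkn1b, Cdkn1c, Cdkn2a and Cdkn2b, the transcription factor gene Myc, the D-type cyclin genes Ccnd1 and Ccnd2, the phosphatase gene Cdc25a and the kinase gene Cdk6. These are 10 of the 22350 protein-coding genes annotated on chromosomes 1 to 19 and X, and they were chosen by name, as genes of the growth arrest that TGFβ is known for. Every peak that overlapped the gene body or lay within 50 kb of it was assigned to the gene. This gave 30 of the 17784 peaks of the vehicle list and 31 of the 22600 peaks of the TGFβ 2 h list. A peak is called shared when it has at least 1 bp in common with a peak of the other list, and vehicle-only or TGFβ 2 h-only otherwise. A promoter peak reaches to within 1000 bp of an annotated transcript start, and every other peak counts as distal.

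The peaks come from DNaseI-seq, in which nuclei are cut briefly with DNaseI and short fragments released from open chromatin are sequenced. The cells were NMuMG, an epithelial line from mouse mammary gland, deprived of serum and insulin for 6 h and then kept for 2 h with 5 ng/ml TGFβ1 or with the carrier solution alone (vehicle). Both conditions therefore share the starvation, and no unstarved cells enter the comparison. One peak list per condition was analysed: duplicates are mentioned in the series text and merged reads in the study's data listing, but replicate lists were not analysed here, so no spread between replicates is known and no test between conditions was made. Of 7 epithelial marker genes, Cdh1, Krt8 and Krt18 had a promoter peak in both lists and Epcam, Krt7, Cldn4 and Esrp1 in neither, whereas none of 4 leukocyte and 3 endothelial markers had one. A peak at a promoter is not a measure of expression.

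TGFβ is known to stop epithelial cells in the G1 phase of the cell cycle. It does so by inducing inhibitors of the cyclin-dependent kinases (CDKs), among them the products of Cdkn2b and Cdkn1a, and by repressing Myc, whose protein otherwise holds these inhibitor genes down. Cyclin D with its partner kinases, which include Cdk6, drives cells through G1 by phosphorylating the retinoblastoma protein and so freeing E2F factors, and Cdc25a removes inhibitory phosphates from CDKs.

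The sequences of the windows on which the description turns are given first, from mouse assembly mm9 (NCBIM37). They were searched on both strands for exact consensus letters: AP-1 (TGACTCA or TGAGTCA), E2F (TTTCCCGC, TTTGGCGC, TTTCGCGC or TTTGCCGC), SP, the GC box of Sp1-like factors (GGGCGG), and SMAD, as the GC-rich motif GGCGC, which the second E2F form contains, or the palindrome GTCTAGAC. The first 3 lie at the middle of distal peaks called in 1 list only. Near Cdk6 and near Cdkn1b it is the highest-scoring TGFβ 2 h-only peak with an AP-1 match within 100 bp of its midpoint. No other member had such a distal peak, although whole peaks held a match in 4 of the 7 distal TGFβ 2 h-only peaks. The third is the highest-scoring vehicle-only peak, upstream of Ccnd1. Capitals mark AP-1 matches in the Cdk6 and Cdkn1b windows and, in the Ccnd1 window, an E2F match whose consensus reads on the opposite strand. GGCGC was found once in the Ccnd1 window, not in capitals, and neither SMAD motif was found in the Cdk6 and Cdkn1b windows.
Cdk6, TGFβ 2 h-only, intron, chr5:3494367-3494566, plus strand: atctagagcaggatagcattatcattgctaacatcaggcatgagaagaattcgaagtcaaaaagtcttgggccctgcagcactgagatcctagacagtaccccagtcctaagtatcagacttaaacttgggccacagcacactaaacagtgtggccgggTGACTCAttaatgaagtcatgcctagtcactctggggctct
Cdkn1b, TGFβ 2 h-only, intergenic, chr6:134854209-134854408, plus strand: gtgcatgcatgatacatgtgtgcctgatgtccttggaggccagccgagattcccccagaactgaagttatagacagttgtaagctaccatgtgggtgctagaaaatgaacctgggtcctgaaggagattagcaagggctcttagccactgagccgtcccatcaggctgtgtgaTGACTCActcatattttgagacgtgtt
Ccnd1, vehicle-only, intergenic, chr7:152127410-152127609, plus strand: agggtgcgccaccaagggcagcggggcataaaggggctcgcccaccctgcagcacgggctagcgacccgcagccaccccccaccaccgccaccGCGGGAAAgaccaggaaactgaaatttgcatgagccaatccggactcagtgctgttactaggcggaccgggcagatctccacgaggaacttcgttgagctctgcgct

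The next 3 are the 200 bp before a start site, read in the direction of the gene, and were chosen after the peaks had been seen to show inhibitor and Myc promoters that both lists called: Cdkn1a, Cdkn2b and Myc. Capitals mark SP matches, of which Cdkn1a had 2 (before the second of its annotated start sites), Myc 3 and Cdkn2b none. GGCGC, which is not in capitals, was found 4 times in the Cdkn1a window and not in the Cdkn2b and Myc windows. The window before the first Cdkn1a start site held neither an SP match nor GGCGC. Before the first start sites of Cdkn1b and Cdkn2a GGCGC was found 7 times each. An SP match is common, being present in 38% of the 200-bp windows before the first start of the 22350 coding genes, and so is GGCGC, at 35.5%. An AP-1 match was present in 3.11% of these windows and in none of the 10 genes, and an E2F match in 1.81% and in Cdkn2a and Cdc25a, with 1 match each. A match describes the letters of the window and no match says only that they are absent from it.
Cdkn1a, second start site, chr17:29230517-29230716, plus strand: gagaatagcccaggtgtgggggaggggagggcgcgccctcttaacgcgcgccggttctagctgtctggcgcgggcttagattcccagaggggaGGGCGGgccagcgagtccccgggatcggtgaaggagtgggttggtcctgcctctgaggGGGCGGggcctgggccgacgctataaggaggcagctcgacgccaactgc
Cdkn2b, chr4:88956942-88957141, minus strand: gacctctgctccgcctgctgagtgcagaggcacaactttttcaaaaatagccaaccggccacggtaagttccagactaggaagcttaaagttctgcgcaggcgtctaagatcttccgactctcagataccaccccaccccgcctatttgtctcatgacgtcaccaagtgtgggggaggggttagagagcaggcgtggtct
Myc, chr15:61816746-61816945, plus strand: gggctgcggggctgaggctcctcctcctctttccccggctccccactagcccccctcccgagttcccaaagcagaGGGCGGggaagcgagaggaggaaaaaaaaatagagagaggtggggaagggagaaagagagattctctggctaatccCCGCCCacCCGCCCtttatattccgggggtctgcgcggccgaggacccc

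Near these genes the 2 lists differed in which sites were called, but not in one direction. The vehicle list had 8 vehicle-only peaks among 30 (26.7%, Wilson 95% interval 14.2 to 44.4), beside 17.6% of all its peaks. The TGFβ 2 h list had 8 TGFβ 2 h-only peaks among 31 (25.8%, 13.7 to 43.2), beside 33.7% of all its peaks. Equal numbers of unshared peaks therefore stood near the 10 genes, while over the whole lists 3128 peaks were vehicle-only and 7611 TGFβ 2 h-only. The intervals cover the counting of peaks only, and both include the share of the whole list. The balance depended on distance, with 5 vehicle-only and 2 TGFβ 2 h-only peaks within 10 kb of the gene bodies and 9 and 14 within 100 kb, and cutting the longer list to equal length by score gave 10 and 5. The vehicle library was the more deeply sequenced one by the study's own summary of mapped reads, and differences between the lists in read depth, digestion or replicate agreement cannot be told apart from the treatment.

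**Figure D1:**
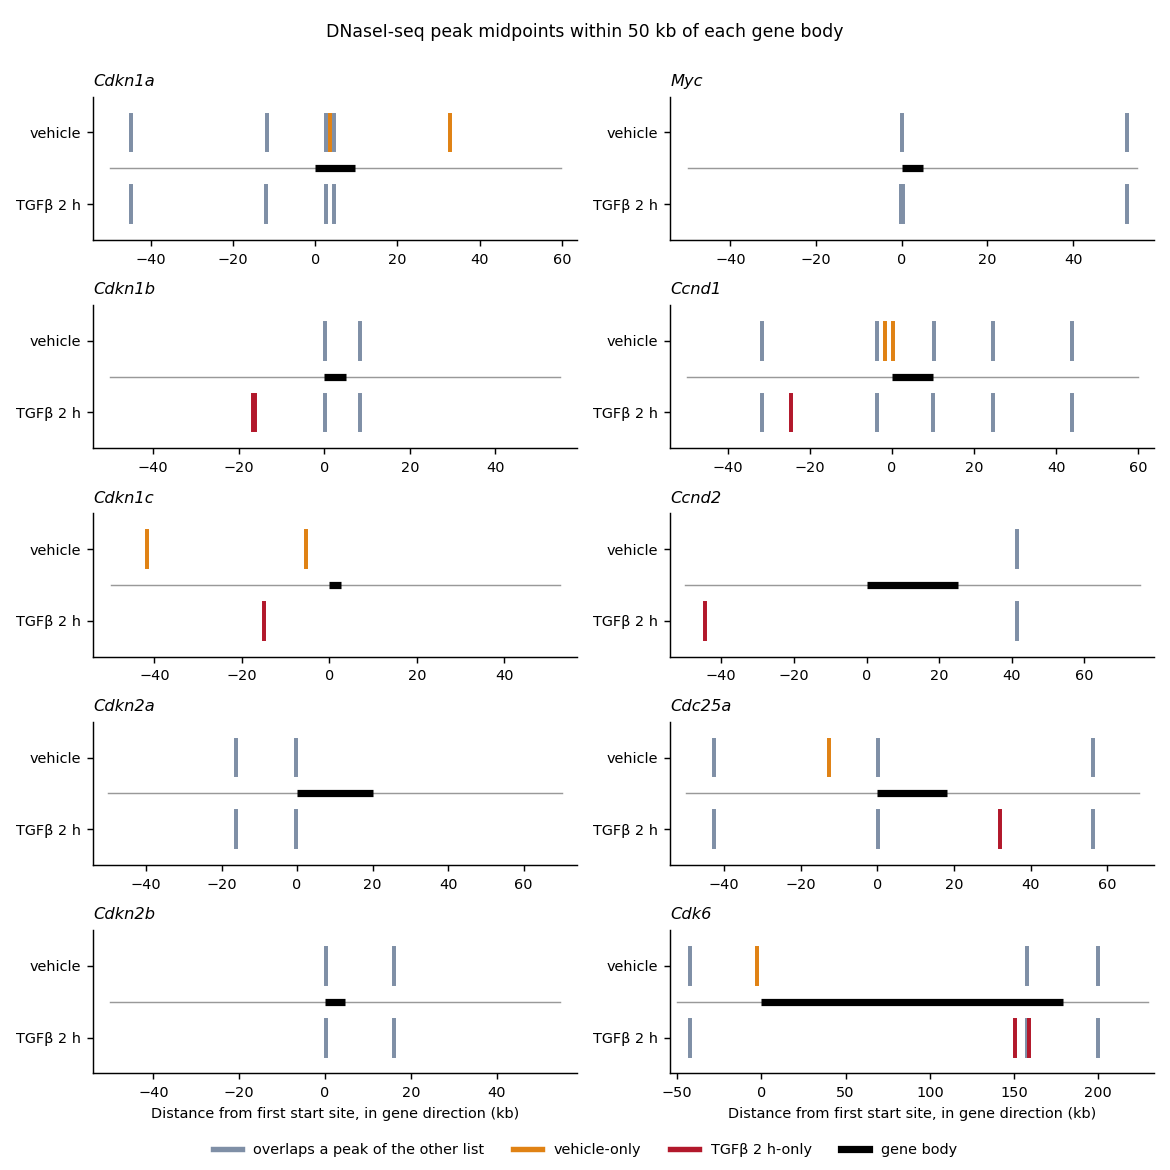
Midpoints of all peaks within 50 kb of each gene body (black bar), plotted by distance in kb from the first start site in the direction of the gene, with the vehicle list above the line and the TGFβ 2 h list below it. Grey bars are shared peaks, orange bars the 8 vehicle-only and red bars the 8 TGFβ 2 h-only peaks. At Cdkn2a and Cdkn2b, which share their peaks, and at Myc no coloured bar is seen, and at Cdkn1a all coloured bars are orange.

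By gene, Cdkn1b, Myc, Ccnd2 and Cdk6 had more TGFβ 2 h than vehicle peaks, which makes 4 of 10 beside 33.7% of all coding genes. Cdkn1a, Cdkn1c and Ccnd1 had fewer, 3 of 10 beside 13.2%. The other members had equal numbers. At least 1 TGFβ 2 h-only peak stood near 6 of the 10 (40.5% of coding genes), namely Cdkn1b, Cdkn1c, Ccnd1, Ccnd2, Cdc25a and Cdk6. At least 1 vehicle-only peak stood near 5 (25.9%), namely Cdkn1a, Cdkn1c, Ccnd1, Cdc25a and Cdk6, so that 4 genes had both kinds.

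**Figure D2:**
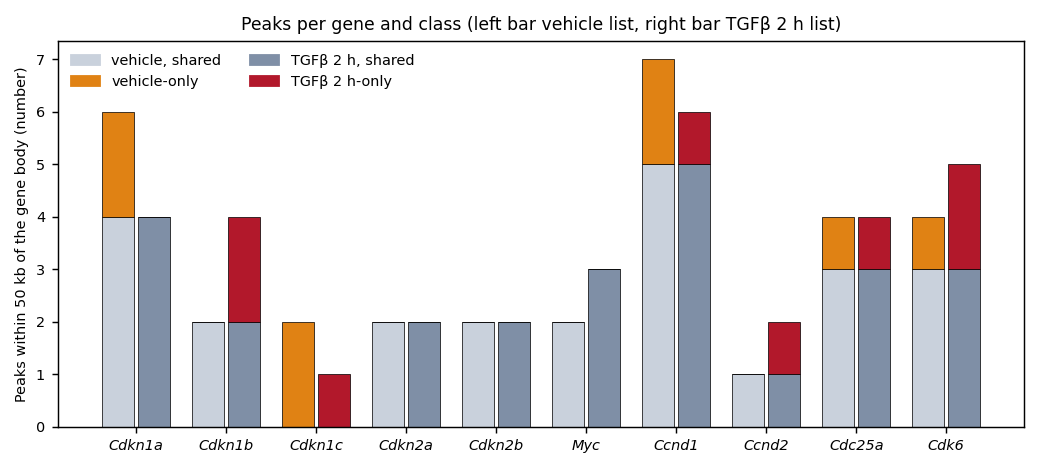
Number of peaks within 50 kb of each gene body in the vehicle list (left bar) and the TGFβ 2 h list (right bar), divided into shared peaks (grey) and peaks of 1 list only (orange vehicle-only, red TGFβ 2 h-only). Counts run from 1 to 7 peaks per gene, and Cdkn2a and Cdkn2b show the same 2 peaks in each list.

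The promoters were mostly called in both lists. Cdkn1a, Cdkn1b, Cdkn2a, Cdkn2b, Myc and Cdc25a had a promoter peak in both, 6 of 10 beside 43.8% of coding genes. Cdkn1a had an additional, vehicle-only one. Ccnd1 had one in the vehicle list only, a pattern of 1.85% of coding genes. No member had one in the TGFβ 2 h list only (2.46% of coding genes). Cdkn1c, Ccnd2 and Cdk6 had none in either list, 3 of 10 beside 51.8%. Among all promoter peaks in the windows, those of neighbouring genes included, 3 of 17 vehicle peaks were vehicle-only (17.6%, 6.19 to 41.0, list 7.29%) and 1 of 16 TGFβ 2 h peaks was TGFβ 2 h-only (6.25%, 1.11 to 28.3, list 10.1%). Among distal peaks the unshared ones were 5 of 13 for vehicle (38.5%, 17.7 to 64.5, list 31.6%) and 7 of 15 for TGFβ 2 h (46.7%, 24.8 to 69.9, list 55.3%).

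**Figure D3:**
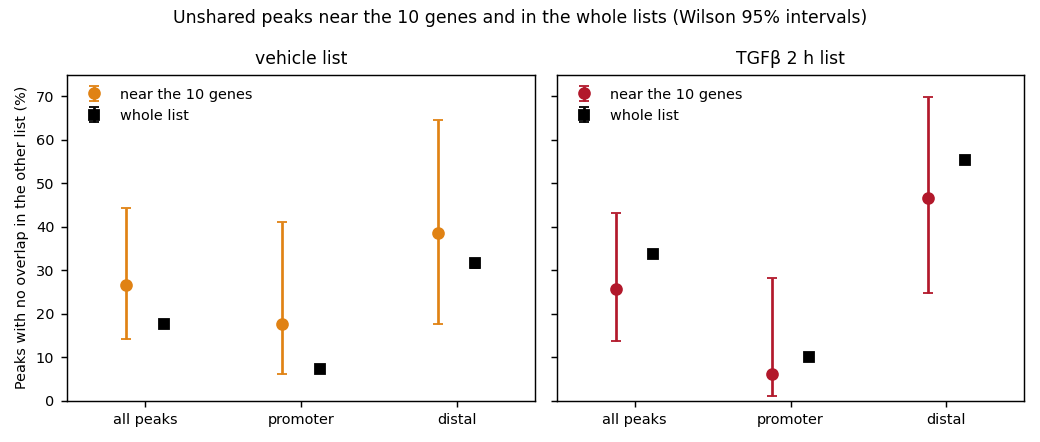
Share of peaks (%) with no overlap in the other list, for the vehicle list (left) and the TGFβ 2 h list (right), near the 10 genes (coloured circles) and in the whole list (black squares), with Wilson 95% intervals that cover counting only. For all, promoter and distal peaks alike, the coloured point lies above the square in the vehicle panel and below it in the TGFβ 2 h panel, and every coloured interval includes the square.

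Cdkn1a encodes p21, an inhibitor of CDK2 and other cyclin-dependent kinases that p53 and TGFβ signaling both induce. It had 6 vehicle and 4 TGFβ 2 h peaks within 50 kb, and all 4 of the latter were shared. The gene (ENSMUSG00000023067.7, chr17:29227924-29237667, plus strand) has 3 annotated start sites, and a promoter peak shared by both lists lay over the second, at 29230717. It spanned chr17:29230306-29230831 with vehicle and 29230362-29230821 with TGFβ 2 h, both at the score ceiling of 1000. The score is the authors' whole-number peak score, which runs from 540 to 1000 in both lists and ranks peaks within a list only. The study's methods do not say what it measures, and it is not read as signal here. Both peaks contain the 2 SP matches printed above.

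The vehicle list held a further promoter peak of Cdkn1a, 1086 bp wide, chr17:29231078-29232163, with a score of 631, so that 1 of its 2 vehicle promoter peaks was vehicle-only. Its midpoint lay 0.90 kb downstream of the second start site, in an intron. No TGFβ 2 h peak overlapped it, but the nearest began only 162 bp beyond its end. The other vehicle-only peak, chr17:29260188-29261101 (score 584), lay in an intron of the noncoding gene Gm16194, and the nearest TGFβ 2 h peak stood 27509 bp from it. Between these a shared intronic peak had an AP-1 match within 100 bp of its midpoint in both lists, and its score was 868 with vehicle and 1000 with TGFβ 2 h. Peaks covered 3928 bp near Cdkn1a with vehicle and 1836 bp with TGFβ 2 h, and this ratio of 0.467 was the lowest of the 10 genes.

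Upstream of the first annotated start site of Cdkn1a, 2.85 kb before the second, stand 2 matches to the p53 consensus unit, which occurs as a pair in a full p53 element, a window chosen after the peaks had been seen because p53 is the best known regulator of this gene. Such a unit was found in 4.92% of the 200-bp windows before the first start of coding genes. No peak of either list overlapped the window, in which capitals mark the exact matches. Other letters stand between these matches, so they are not a directly joined pair. The stretch right after the second match differs from the unit only in its first letter and is not in capitals.
Cdkn1a, p53 consensus units, chr17:29227831-29227902, plus strand: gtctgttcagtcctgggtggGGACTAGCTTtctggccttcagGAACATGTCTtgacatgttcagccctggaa

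Cdkn1b encodes p27, which binds and inhibits cyclin E with CDK2. It had 2 vehicle peaks, both shared, and 4 TGFβ 2 h peaks. The promoter peak was at the ceiling in both lists and measured 1523 bp with vehicle (chr6:134869780-134871302) and 1100 bp with TGFβ 2 h (chr6:134870003-134871102). The second shared peak, 8.34 kb downstream of the start site, had nearly the same width in the lists, 1004 and 1009 bp. The TGFβ 2 h-only peaks were neighbours about 16 kb upstream, in intergenic sequence that is closer to the start site of Gpr19 than to that of Cdkn1b. One, chr6:134853794-134853871, was 78 bp wide with a score of 760, and the other, chr6:134853947-134854672, was 726 bp wide with a score of 598 and holds the AP-1 match printed above. The nearest vehicle peak stood 15108 bp from the wider of them. Without peaks under 150 bp the pair counts as 1 site.

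Cdkn1c encodes p57, an imprinted CDK inhibitor. It was the only member with no shared peak and one of 3 with no promoter peak. The vehicle list had a peak 5.35 kb upstream (chr7:150652121-150652492, score 595) and another at the promoter of Phlda2 (chr7:150688387-150688949, score 788). The TGFβ 2 h list had 1 peak, chr7:150661723-150662277 (score 949), at the promoter of Slc22a18, with an AP-1 match within 100 bp of its midpoint. The vehicle and TGFβ 2 h peaks closest to each other were 9231 bp apart. Kcnq1, Phlda2 and Slc22a18 are the other coding genes of the window, so none of these peaks can be given to Cdkn1c by position alone.

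Cdkn2b and Cdkn2a stand side by side on chromosome 4 and were covered by the same 2 peaks in each list, all shared, so these counts are 1 locus and not a pair of observations. Cdkn2b encodes p15, an inhibitor of the cyclin D kinases and the classical TGFβ-induced inhibitor of epithelial cells. Its promoter peak was at the ceiling in both lists, 687 bp wide with vehicle (chr4:88956430-88957116) and 716 bp with TGFβ 2 h (chr4:88956400-88957115). The promoter was thus called open in both conditions, with its start site inside the peak.

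Cdkn2a encodes p16 and, from a separate upstream first exon, Arf. The peak called for Cdkn2a lay over the upstream start sites, at 88940557 and 88940523, and was 1625 bp wide with vehicle (chr4:88940062-88941686, score 1000) and 1065 bp with TGFβ 2 h (chr4:88940385-88941449, score 974). The third annotated start site, at 88928096 and nearer to the shared exons, had no peak in its window in either list, and the nearest stood 12.0 kb away with vehicle and 12.3 kb with TGFβ 2 h. The nearest vehicle-only peak stood 355 kb from the Cdkn2b start site, and the nearest TGFβ 2 h-only peak 60.2 kb. Over all coding genes the medians of these distances were 183 and 88.4 kb.

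Myc encodes the growth-promoting transcription factor that TGFβ represses in epithelial cells. Its peaks were all shared, 2 with vehicle and 3 with TGFβ 2 h, so the higher count does not come from a new site. With both lists limited to at least their median score (1000 for vehicle, 927 for TGFβ 2 h) neither vehicle peak kept a partner, since all 3 TGFβ 2 h peaks fall below that limit. The vehicle promoter peak, chr15:61816434-61817437, was 1004 bp wide and at the ceiling. In the TGFβ 2 h list it was met by a pair of narrower peaks, chr15:61816707-61816847 (141 bp, score 672) and chr15:61816960-61817393 (434 bp, score 809), with the first start site, 61816946, between them. Of the 7701 vehicle promoter peaks at the ceiling, 894 (11.6%) had only TGFβ 2 h partners below it, 239 (3.10%) overlapped more than 1 TGFβ 2 h peak, and 41 (0.532%) had both features. These features were taken from the Myc peaks after they had been seen, so the shares are no test of whether Myc stands out. The other Myc peak, at the promoter of the noncoding gene Pvt1, had a score of 1000 with vehicle and 656 with TGFβ 2 h, and its width was 555 and 404 bp. Peaks covered 1559 bp near Myc with vehicle and 979 bp with TGFβ 2 h, a ratio of 0.628.

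No other coding gene lies in the Myc window, and the nearest vehicle-only and TGFβ 2 h-only peaks stood 119 and 141 kb from a start site. An E2F match stands 89 bp downstream of the first Myc start site, within a peak of both lists. It is not particular to Myc. The promoter peaks of Cdc25a held 2 E2F matches and that of Cdkn2a 1 in each list, and the vehicle-only Cdkn1a promoter peak held 1. The share over all promoter peaks was not counted. The printed window was chosen after the peaks had been seen, and capitals mark the Myc match.
Myc, E2F match, chr15:61817024-61817053, plus strand: gccgacgcttgGCGGGAAAaagaagggagg

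**Figure D4:**
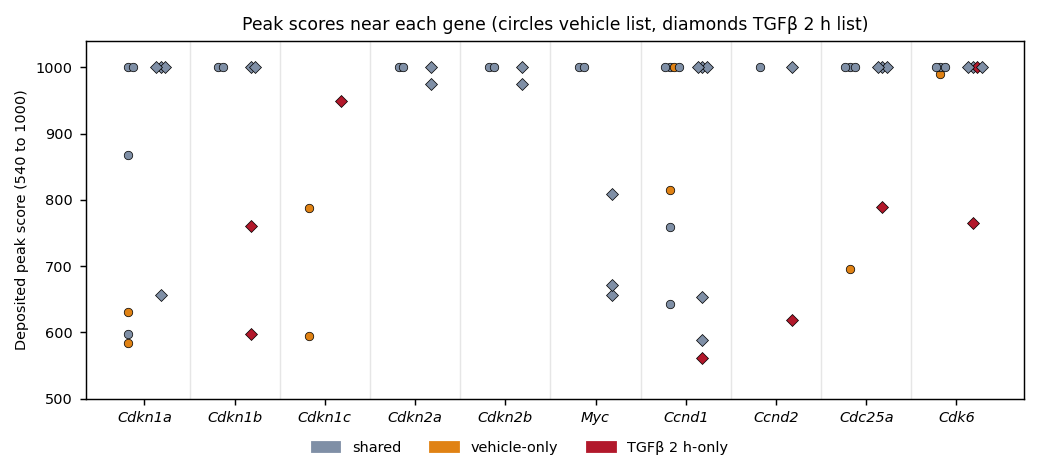
Deposited peak score (540 to a ceiling of 1000) of every peak near each gene, circles for the vehicle list and diamonds for the TGFβ 2 h list, with shared peaks in grey, vehicle-only peaks in orange and TGFβ 2 h-only peaks in red, and the peaks of Cdkn2a and Cdkn2b drawn for both. Both Myc circles sit at the ceiling and all 3 Myc diamonds lie between 656 and 809, whereas only 1 orange and 1 red point, at Ccnd1 and Cdk6, reach the ceiling.

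Ccnd1 encodes cyclin D1, which activates Cdk4 and Cdk6 in G1. It had the most peaks of the 10 genes, 7 with vehicle and 6 with TGFβ 2 h. Both of its vehicle-only peaks stood at or just upstream of the start site. The first, chr7:152125492-152125823, covers the start of the gene (chr7:152115836-152125774, minus strand), is 332 bp wide and had a score of 815. The second, chr7:152127248-152127772, is 525 bp wide, has its midpoint 1.74 kb upstream of the start and was at the ceiling. With TGFβ 2 h the peak nearest to the start site lay 3.45 kb upstream.

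A promoter called with vehicle only was uncommon in these lists. Of 10212 coding genes with a vehicle promoter peak, 413 (4.04%) had none in the TGFβ 2 h list. Of 1761 distal vehicle peaks at the ceiling, 100 (5.68%) had no TGFβ 2 h partner. The Ccnd1 peak at the ceiling is the one printed above with an E2F match, found within 100 bp of the midpoint in 0.588% of distal vehicle-only peaks. The peaks were called with vehicle only, which does not say that the signal was absent with TGFβ, since the lists hold no signal values.

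The other 5 vehicle peaks near Ccnd1 had a partner. They included the promoters of the neighbours Fgf15 and Oraov1, a site across the 3′ end of Ccnd1 and distal sites 3.56 and 31.59 kb upstream. The site across the 3′ end had its midpoint in an untranslated exon of Oraov1 in both lists. Of the 5 vehicle peaks with a partner, 3 were at the ceiling in both lists. The Fgf15 peak had a score of 759 with vehicle and 588 with TGFβ 2 h, and the peak 3.56 kb upstream had scores of 643 and 654. The single TGFβ 2 h-only peak, chr7:152150007-152150666, stood 24.56 kb upstream and had the lowest score of the TGFβ 2 h peaks near the 10 genes, 561.

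Ccnd2 encodes cyclin D2. It had no promoter peak in either list, and no peak stood within 41.0 kb of its start site. A shared peak at the ceiling lay at the promoter of 9630033F20Rik, 784 bp wide with vehicle and 600 bp with TGFβ 2 h. The TGFβ 2 h-only peak, chr6:127145309-127145745 (score 619), lay at -44.46 kb from the start site, in an intron of the noncoding gene 9330179D12Rik, and the nearest vehicle peak stood 85291 bp from it.

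Cdk6, the catalytic partner of the D-type cyclins, had no peak within 1000 bp of either annotated start site. With vehicle a GC-rich peak (69.8% G or C) stood 2.58 kb upstream of the first start, chr5:3341113-3341506, with a score of 990. The nearest TGFβ 2 h peak stood 39368 bp from it. With TGFβ 2 h, 2 unshared peaks stood inside the gene, more than 150 kb from the start. One, chr5:3493921-3495013, was 1093 bp wide, at the ceiling and 6325 bp from the nearest vehicle peak, and holds the AP-1 match printed above. The other, chr5:3502716-3503337 (622 bp, score 765), stood 767 bp from a peak that both lists shared. Peaks covered 2739 bp near Cdk6 with vehicle and 4176 bp with TGFβ 2 h, and this ratio of 1.52 was the highest of the 10 genes. Of the TGFβ 2 h list's peaks at the ceiling near the 10 genes, this intronic peak was the only one without a vehicle partner.

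Cdc25a, an activator of CDK2 and target of E2F and Myc, had 4 peaks in each list. Its promoter peak was at the ceiling in both and 1120 and 1173 bp wide. A vehicle-only peak stood 12.66 kb upstream (chr9:109765011-109765837, score 696), and a TGFβ 2 h-only peak stood 31.53 kb downstream of the start (chr9:109809738-109810311, score 789). The others lay at the promoters of Nme6 and Mtap4 and were at the ceiling in both lists. Equal counts at Cdc25a thus hid a different distal site in each list.

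Pairs in which 1 vehicle peak met 1 TGFβ 2 h peak were compared in score and width. There were 21 such pairs near the 10 genes, and in 15 both scores were at the ceiling (54.7% of all pairs), where no difference can be seen. The TGFβ 2 h score was lower in 3 (Cdkn2a, Pvt1 and Fgf15 promoters), beside 21.6% of all pairs, and higher in 3 (a pair of Cdkn1a peaks and the Ccnd1 peak 3.56 kb upstream), beside 23.6%. Since each score ranks a peak within its own list, these differences do not compare signal. The median width ratio, TGFβ 2 h over vehicle, was 0.875 (95% interval 0.728 to 1.04), beside 0.906 over all 13978 pairs. The TGFβ 2 h peak was narrower in 13 of 21 (61.9%, 40.9 to 79.2), beside 70.9% of all pairs. The ratio ran from 0.616 at the Fgf15 promoter to 1.16 at the distal peak farthest upstream of Cdkn1a.

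**Figure D5:**
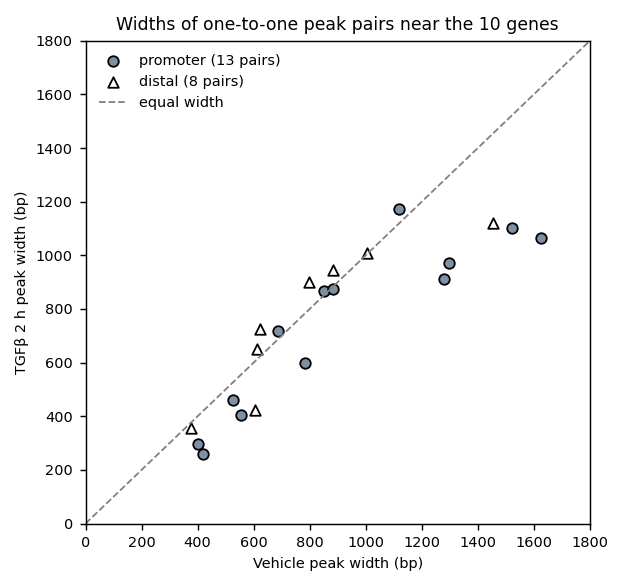
Width (bp) of the vehicle peak (x axis) and the TGFβ 2 h peak (y axis) in the 21 one-to-one pairs near the 10 genes, circles for promoter and triangles for distal peaks, with the line of equal width. Of the points, 13 lie below the line, among them the Cdkn2a (1625 and 1065 bp) and Cdkn1b (1523 and 1100 bp) promoters, and the distal ones lie near it except at 31.59 and 3.56 kb upstream of Ccnd1.

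Most unshared peaks lay below the ceiling, which 53.2% of all vehicle peaks and 44.3% of all TGFβ 2 h peaks reached. The 8 vehicle-only peaks had a median score of 742 (584 to 1000) and a median width of 544 bp, beside 824.5 bp for the shared vehicle peaks near the genes. The 8 TGFβ 2 h-only peaks had a median score of 762.5 (561 to 1000) and a median width of 598 bp, beside 725 bp. Over the whole lists unshared peaks had median scores of 654 for vehicle and 669 for TGFβ 2 h. In each list 1 of the 8 was at the ceiling, the peak upstream of Ccnd1 and the intronic peak of Cdk6.

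AP-1 letters were found within 100 bp of the midpoint in 2 of the 7 distal TGFβ 2 h-only peaks, beside 27.2% of all distal TGFβ 2 h-only peaks. They were found in none of the 5 distal vehicle-only peaks, beside 7.73% of all of them. The members carrying the match were Cdk6 and Cdkn1b, as printed above. When whole peaks were searched, 4 of the 7 held a match, beside 45.2% of all distal TGFβ 2 h-only peaks, and none of the 5 distal vehicle-only peaks, beside 16.8%. Among unshared promoter peaks, which these counts leave out, the vehicle-only one of Cdkn1a held 1 AP-1 match when searched whole. The TGFβ 2 h-only one of Slc22a18 held 1 within 100 bp of its midpoint. The 7 peaks had a median width of 622 bp, beside 436 bp over all distal TGFβ 2 h-only peaks. The SMAD motif GGCGC was found around the midpoint in none of the 7 TGFβ 2 h-only peaks (list 10.2%) and in 2 of the 5 vehicle-only peaks (list 17.5%), and the SMAD palindrome in none of either (lists 0.675% and 0.0420%). An SP match was found in 1 of 7 (list 6.89%) and 2 of 5 (list 8.44%), a TEAD match (GGAATG) in 1 of 7 (list 14.9%) and a forkhead match (TGTTTAC) in 1 of 5 (list 3.07%). The E-box (CACGTG), the CTCF core and the p53 consensus unit were found in none of these peaks. With so few peaks these counts do not set the genes apart from the lists.

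Other genes of the same machinery were counted in the same way from a list of 32 further cyclins, CDKs, CDK inhibitors, retinoblastoma and E2F family members, CDK regulators and Myc partners. Of these, 28 had a promoter peak in both lists (43.8% of all coding genes), 4 (Cdkn2d, E2f2, Mycn and Mycl1) in neither, and none in 1 list only. More TGFβ 2 h peaks were called near 13 (33.7% of all coding genes), fewer near 4 (13.2%) and equal numbers near 15 (53.1%), so the shares with more and with fewer were near those of all coding genes. The largest difference was at Mxd1, which encodes a partner of Max that opposes Myc, with 3 vehicle and 7 TGFβ 2 h peaks. Zbtb17, which encodes Miz1, the factor through which Myc holds down Cdkn2b, and Wee1, an inhibitory kinase of CDK1, each had 3 vehicle and 6 TGFβ 2 h peaks. Cdk4, the relative of Cdk6, had 5 and 3, and Cdc25b, the relative of Cdc25a, had 7 and 5. The others with fewer were the CDK inhibitor gene Cdkn2d, with 6 and 4, and Mycl1, with 3 and 2.

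Unshared peaks of the 32 genes were counted as well. There were 10 vehicle-only peaks among 111 (9.01%, 4.97 to 15.8) and 24 TGFβ 2 h-only peaks among 125 (19.2%, 13.3 to 27.0). Both shares lie below those of the whole lists and their intervals overlap those of the 10 genes. Near the 32 genes TGFβ 2 h-only peaks outnumbered vehicle-only ones, where near the 10 genes the numbers were equal, and the difference between the groups of genes was not tested.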

How the data were processed

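DNaseI-seq peaks of NMuMG cells were analysed from 2 deposited lists, vehicle and TGFβ 2 h, grouped by sample title. The study's methods state that the authors mapped the reads to mm9 with the pipeline of their ATAC-seq data with DNaseI-seq options that are not stated. The submitters' processing notes name MACS2 2.1.2 and deepTools. Per peak the authors deposited a whole-number score with a ceiling of 1000, which ranks peaks within a list. The lists themselves state no read depth. The study's reporting summary gives a greater number of mapped reads to the vehicle library than to the TGFβ 2 h library, and no value here was scaled by depth. Rows repeating an interval (70449 and 68542 rows, a mean of 3.96 and 3.03 per interval) were counted as 1 peak, and what the repeats stand for is not stated. In each list 1 peak ran past a chromosome end of the sequence used.

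Coordinates are 1-based on mm9, with the NCBIM37 sequence and GENCODE M1 gene models. The RefSeq tables at hand are of another build and were not used. A peak was placed in a gene by its midpoint. Distances from start sites to peak midpoints follow the direction of the gene. Motifs were searched in the 200 bp around the midpoint, or in the 200 bp before a start site. Shares carry Wilson 95% intervals, which cover the counting of peaks and not the variation between cultures. The interval of the median width ratio is from order statistics. Python 3.11.15, numpy 2.4.6 and scipy 1.17.1 were used, and overlap classes and motif search were tested on simulated data (10 of 10 checks recovered).

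The genes, the lists and the alternatives were chosen with earlier results of these data known. All unshared peaks and promoter peaks of the 10 genes were to be named. Sequences were to be printed for the top AP-1 containing TGFβ 2 h-only distal peak of each gene and the top vehicle-only peak. The promoter windows, the p53 and E2F windows, the shares of vehicle peaks at the ceiling and the counts over a wider distance were added after the values had been seen. Alternatives changed the distance, the overlap, the score and width limits, the promoter window, the list length and the unit counted. One promoter sequence is not reported here.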

Additional observations from a re-analysis of the deposited data

How the results depend on the processing

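Of 65 recomputed values, 46 stayed within the counting interval or 1.5 times the reported count, 19 moved, and the median width ratio stayed below 1 in every setting tried for it. Within 10 kb of the gene bodies there were 16 vehicle and 14 TGFβ 2 h peaks, 5 vehicle-only and 2 TGFβ 2 h-only peaks, 2 genes with more TGFβ 2 h peaks and 1 distal TGFβ 2 h-only peak with an AP-1 match. Within 100 kb there were 47 TGFβ 2 h peaks, 14 of them TGFβ 2 h-only, and 8 genes with more TGFβ 2 h peaks. Peaks with at least the median score of their list numbered 19 in each list, 3 of them unshared in each. The limits were 1000 for vehicle and 927 for TGFβ 2 h. Partners under the limit were dropped, so the Myc and Pvt1 promoter peaks of the vehicle list and an intronic Cdkn1a peak of the TGFβ 2 h list, shared in the full lists, counted as unshared, and genes with a promoter peak in both lists fell to 5 with the loss of Myc. Without collapsing repeats, 120 vehicle and 103 TGFβ 2 h entries were counted. The order of the lists (30 and 31) also turned within 50 kb of start sites (26 and 25), at equal list length (30 and 26) and without peaks under 150 bp (30 and 29), as it did within 10 kb, so neither list can be said to hold more peaks near these genes. With the longer list cut to equal length 5 TGFβ 2 h-only peaks and 1 AP-1 match were left. Counting from start sites left 1 AP-1 match, and searching whole peaks gave 4. The TGFβ 2 h-only share ran from 14.3% to 35.5% over the alternatives, the median width ratio from 0.822 to 0.999, and the number of genes with a promoter peak in both lists from 5 to 6. The causes were not tested. No paired analysis was possible because only 1 list represents a condition. The vehicle library was sequenced more deeply, and its part in the vehicle-only calls was not tested, which limits what the absence of a TGFβ 2 h peak can say.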

Other observations

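Peaks were also counted within 500 kb of the gene bodies, a distance chosen after the data had been seen. Around Myc there were 15 peaks in each list, with 3 vehicle-only and 2 TGFβ 2 h-only. Around Ccnd2 there were 9 vehicle and 7 TGFβ 2 h peaks, with 3 vehicle-only and 1 TGFβ 2 h-only. Around Cdkn1a there were 28 and 29 peaks, with 4 unshared in each list. Around the other genes the TGFβ 2 h list held more peaks and more unshared ones. Ccnd1 had 5 vehicle-only and 13 TGFβ 2 h-only peaks, Cdkn1b 6 and 12, Cdkn1c 5 and 10, and the Cdkn2a and Cdkn2b locus 1 and 8. Cdc25a had 1 and 4, and Cdk6 1 and 3. The TGFβ 2 h-only share of the TGFβ 2 h peaks was 27.3% to 41.7% at these genes, around the 33.7% of the whole list, and 13.3% at Myc, 13.8% at Cdkn1a and 14.3% at Ccnd2. These windows hold many other genes, and no difference was tested.

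Cdkn1b and Cdk6 had the most TGFβ 2 h-only peaks of the 10 genes, 2 each. The numbers of vehicle-only, shared and TGFβ 2 h-only peaks of Cdkn1b were matched exactly by 305 coding genes whose windows share no peak with it, and those closest in gene length were Lynx1, Ccl11 and Wbscr28. For Cdk6 there were 149 such genes, and the closest in length were Cit, Sdccag8 and Iqsec1. The likeness is over 3 counts in 2 lists.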
